A study of Mus musculus with 12 samples.

Results

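Sparc, Cxcl12, Pdgfrb, Serping1 and Mgp are genes of the bone marrow niche and its stroma, measured here in sorted blood stem and progenitor cells. They make up 5 of the 9984 genes that have a named probe set on the arrays, and each is represented by 1 probe set. They were chosen by their measured log2 differences between Erg +/- and Erg +/+ hematopoietic stem cells (HSCs) and by their co-variation over the arrays, so both are given as a description and not as a test. The arrays of multipotent progenitors (MPPs) played no part in that difference, and the genes were tested there. The co-variation took in all 12 arrays, those of MPPs included, so that test is not wholly free of the choice.

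The study used 12 Affymetrix arrays, 3 for each of 4 groups, with 20 ng of total RNA amplified per sample, and all mice were male on a C57Bl/6 background. The groups were Erg +/- HSCs, Erg +/+ HSCs, Erg -/- MPPs and Erg fl/fl MPPs. Erg +/- mice came from a cross of the floxed line with a general Cre deleter. That deletion is not limited to blood cells. Erg -/- MPPs came from Erg fl/fl mice that carried Mx1-Cre, an interferon-inducible recombinase, and Erg fl/fl MPPs from mice without Cre. The mice of both MPP groups received pIpC, an RNA duplex that triggers interferon release and so switches on Mx1-Cre, in 5 injections, and cells were taken 2 weeks after treatment began. The HSC groups have no such treatment in their labels. The floxed exon is exon 11, which encodes the DNA-binding domain of ERG, an ETS-family transcription factor. The HSC gate, applied to marrow enriched for c-Kit, was Lin- Sca-1+ c-Kit+ with CD150 present and CD48 absent. For the MPPs 1 label field gives a CD150-negative gate and another repeats the HSC gate. The ages of the mice, and whether samples came from separate animals, are not given in the sources used here.

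Blood stem cells live beside blood vessels, among perivascular stromal cells, endothelial cells and bone-forming cells that supply them with signals. CXCL12 is the chemokine by which perivascular stromal cells hold stem cells in the marrow, through the receptor CXCR4 on the stem cell. PDGFRB is the receptor for platelet-derived growth factor B on pericytes and other mural cells. SPARC is a secreted matrix protein that binds collagen and calcium. MGP is a secreted protein that restrains calcification and binds bone morphogenetic proteins. SERPING1 is the C1 inhibitor, a secreted serpin that blocks the first proteases of the complement and contact systems. SPARC is also made by megakaryocytes and stored in platelets.

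RefSeq promoter windows, which run from 250 bases before to 50 bases after the gene start, were at hand for 2 of the genes, Sparc and Cxcl12. They are shown because they were at hand, whatever the size of the difference in Erg +/- HSCs. Pdgfrb was not looked up. Capitals mark each GGAA, the core letters that ETS factors bind, on either strand (TTCC where it lies on the other strand). The Sparc window is chr11:55420031-55420330 on the minus strand and the Cxcl12 window is chr6:117168285-117168584 on the plus strand, both in GRCm38.p6 and written 5′ to 3′ along the gene.
Sparc: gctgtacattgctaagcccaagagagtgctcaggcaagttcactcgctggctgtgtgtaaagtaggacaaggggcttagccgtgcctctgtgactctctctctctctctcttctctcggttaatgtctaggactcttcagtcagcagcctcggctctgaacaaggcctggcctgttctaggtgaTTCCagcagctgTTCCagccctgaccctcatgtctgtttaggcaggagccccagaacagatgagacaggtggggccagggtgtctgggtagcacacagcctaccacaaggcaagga
Cxcl12: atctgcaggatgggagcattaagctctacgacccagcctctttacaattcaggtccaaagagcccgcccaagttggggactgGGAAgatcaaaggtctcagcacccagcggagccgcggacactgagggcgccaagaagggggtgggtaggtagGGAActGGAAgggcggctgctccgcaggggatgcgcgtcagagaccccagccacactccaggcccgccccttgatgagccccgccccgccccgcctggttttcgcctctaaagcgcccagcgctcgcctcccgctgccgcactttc

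The Sparc window holds 2 GGAA matches and the Cxcl12 window 3, and 96% of the 32851 promoter windows hold at least 1, so a match of these letters sets neither gene apart. The longer ETS letters AGGAAG (35.4% of windows), CCGGAA (14.9%) and ACCGGAAGT (1.1%), which overlap the core, were in neither window on either strand. The 2 windows differ in base composition. The Cxcl12 window is 64.7% G or C with 20 CG pairs and 5 matches to the SP1 letters GGGCGG, which 35.7% of windows hold. The Sparc window is 55.3% G or C with 4 CG pairs and no SP1 match, beside medians of 52.7% and 7 CG pairs over all windows. The RUNX letters TGTGGT were found once in the Sparc window and not in the Cxcl12 window (16.8% of windows). The GATA letters AGATAA (11.2%), the TATA box letters TATAAA (13.6%) and the E-box CACGTG (7.15%) were in neither. A match is a description of these letters and shows no binding.

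Values below are on the log2 scale of the deposited RMA table, where 1 unit is a doubling. Array medians over all probe sets lay between 5.41 and 5.54, and the Pearson r between 2 arrays of the same group was 0.9528 to 0.9743. The spread of values was wider on HSC arrays, with interquartile ranges of 2.83 to 2.99 against 2.50 to 2.84 on MPP arrays, and widest on Erg +/+ HSC replicate 1. The sorts carried the marks of their populations. The HSC-associated genes Mmrn1 and Tgm2 averaged 8.65 and 8.98 in Erg +/- HSCs and 8.90 and 8.98 in Erg +/+ HSCs, but 3.81 and 5.60 in Erg -/- MPPs and 4.60 and 5.61 in Erg fl/fl MPPs. Flt3, the receptor of multipotent and lymphoid-primed progenitors, averaged 9.32 and 8.80 in Erg -/- and Erg fl/fl MPPs, against 4.91 and 6.23 in Erg +/- and Erg +/+ HSCs. Cd53, a leukocyte tetraspanin gene, averaged 9.10 and 10.05 in Erg -/- and Erg fl/fl MPPs, against 8.54 and 7.94 in Erg +/- and Erg +/+ HSCs. Many of the markers that define marrow stroma (Lepr, Kitl, Pdgfra, Col1a1) and endothelium (Cdh5, Tek, Vwf) are not analysed here, and neither is Erg itself, so its level gives no check of the genotypes.

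In Erg +/- HSCs all 5 genes lay below Erg +/+ HSCs on average, as did 46.2% of all genes, and for all except Pdgfrb the 3 Erg +/- arrays were below every Erg +/+ array. Over all 9984 genes 4.38% were separated downwards in this way. The comparison chose the genes, so nothing is read from that share. In bulk RNA, fewer cells of a type and less RNA per cell cannot be told apart.

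Sparc, the matrix gene, had the widest separation. Its log2 values were 5.16, 5.95 and 5.42 in Erg +/- HSCs, against 7.97, 7.40 and 7.40 in Erg +/+ HSCs. The highest Erg +/- array thus stood 1.44 units below the lowest Erg +/+ array. The means were 5.51 ± 0.408 in Erg +/- HSCs and 7.59 ± 0.327 in Erg +/+ HSCs (SD, n = 3 each), a difference of -2.08 (SE 0.285), or 4.23-fold. By size of difference Sparc ranked 4 of 9984 from the lowest, and leaving out any 1 array kept it between -2.30 and -1.89.

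Cxcl12, the niche chemokine, was far less even among Erg +/+ HSCs. Its values were 5.92, 5.46 and 5.58 in Erg +/- HSCs, against 9.09, 6.08 and 7.03 in Erg +/+ HSCs. The Erg +/+ arrays were spread far more widely than the Erg +/- arrays, and the gap between the groups was 0.16. The means were 5.65 ± 0.237 in Erg +/- HSCs and 7.40 ± 1.54 in Erg +/+ HSCs. The difference of -1.75 (SE 0.549) became -0.90 without Erg +/+ replicate 1, which is the array at 9.09.

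Serping1, the complement inhibitor gene, was also uneven among Erg +/+ HSCs, at a lower signal. It stood at 3.93, 4.56 and 3.98 in Erg +/- HSCs, against 7.21, 5.36 and 5.09 in Erg +/+ HSCs. Erg +/+ replicate 1 was again the high array, and the groups were 0.53 apart. The difference was -1.73 (SE 0.464), and -1.07 without Erg +/+ replicate 1.

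Mgp, the calcification inhibitor gene, was dim but even, with SDs of 0.245 in Erg +/- HSCs and 0.326 in Erg +/+ HSCs. Its values were 4.74, 4.32 and 4.76 in Erg +/- HSCs, against 5.88, 5.30 and 5.33 in Erg +/+ HSCs. The groups were 0.55 apart with a difference of -0.90 (SE 0.245), which ranked 115 of 9984 from the lowest and was -0.71 without Erg +/+ replicate 1.

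Pdgfrb, the mural cell receptor gene, was the exception. It stood at 5.21, 4.85 and 5.71 in Erg +/- HSCs, against 6.06, 5.54 and 6.19 in Erg +/+ HSCs. Erg +/- replicate 3 lay above Erg +/+ replicate 2, so the groups overlapped. The difference was -0.67 (SE 0.246), the smallest of the 5, and it ranged from -0.90 to -0.47 with 1 array left out. The median difference of the 5 genes was -1.73, where the median of all genes was 0.024.

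**Figure D1:**
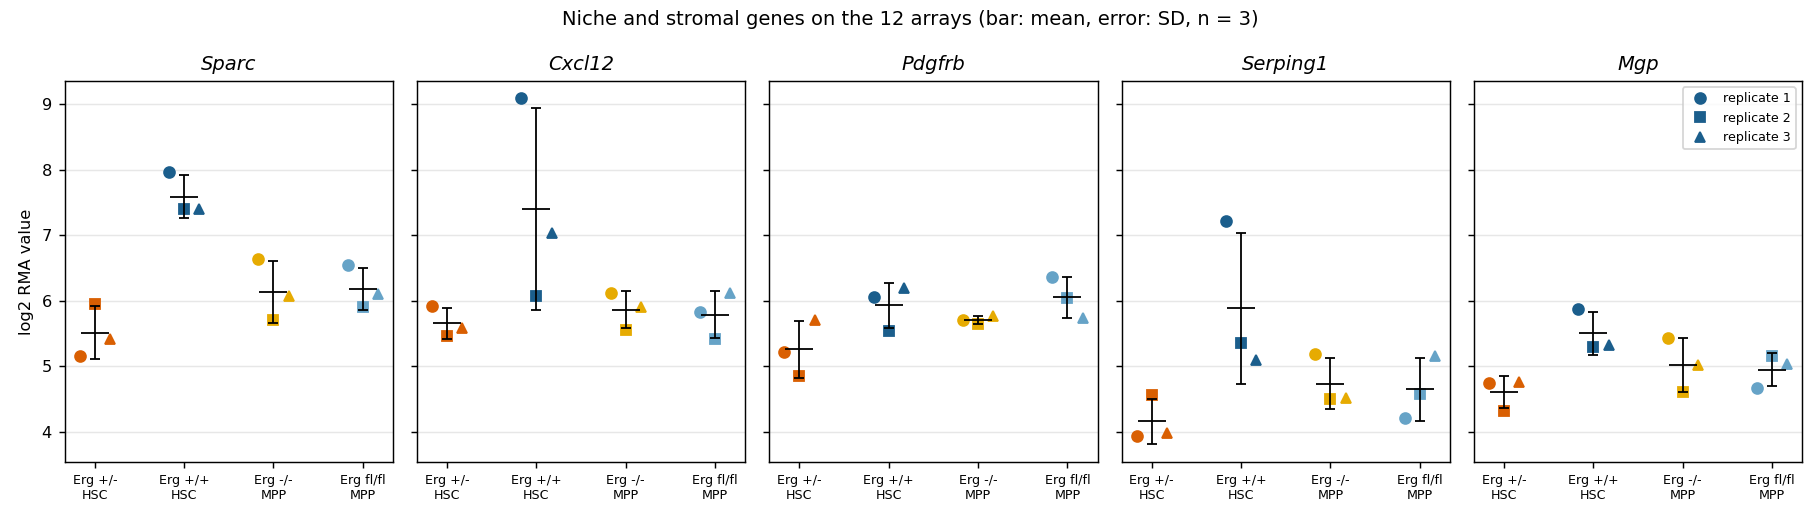
Log2 RMA values (vertical axis) of each gene on the 12 arrays, by group (horizontal axis); marker shapes are replicates 1 to 3, and the black bar and whiskers are the mean and SD of 3 arrays. Erg +/+ HSC replicate 1 is the highest array for Sparc, Cxcl12, Serping1 and Mgp, at 9.09 for Cxcl12, and the 2 MPP groups overlap for all 5 genes.

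In MPPs no difference was detected in the same genes between Erg -/- and Erg fl/fl cells. By limma 0 of the 5 passed an adjusted p of 0.05, and 0 had an unadjusted p under 0.05. Over all genes 0.0801% passed, all of them lower, and 3.58% were lower and 1.21% higher at an unadjusted p under 0.05. The groups overlapped for each of the 5, where 6.1% of all genes were separated downwards and 4.36% upwards, and 2 of the 5 lay below 0, beside 50.6% of all genes. Both MPP groups were treated with pIpC, but only the Erg -/- mice carried Mx1-Cre, so Cre and genotype cannot be told apart.

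Sparc stood at 6.63, 5.70 and 6.07 in Erg -/- MPPs, against 6.54, 5.91 and 6.10 in Erg fl/fl MPPs. The groups lay over each other, with a difference of -0.05 and a 95% interval of -0.67 to 0.57 (limma, adjusted p = 0.998). Cxcl12 stood at 6.12, 5.56 and 5.90 in Erg -/- MPPs, against 5.83, 5.41 and 6.12 in Erg fl/fl MPPs. Its difference was 0.08 with an interval of -1.12 to 1.27 (adjusted p = 0.998 by limma), which is wide because 1 estimate of the spread serves all 4 groups and takes in the uneven Erg +/+ HSCs.

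Serping1 values were 5.18, 4.50 and 4.52 in Erg -/- MPPs, against 4.21, 4.57 and 5.16 in Erg fl/fl MPPs. The difference was 0.09, with an interval of -0.92 to 1.10. Mgp stood at 5.43, 4.60 and 5.02 in Erg -/- MPPs, against 4.67, 5.15 and 5.03 in Erg fl/fl MPPs. Its difference of 0.07 had an interval of -0.46 to 0.60, and again the arrays of the groups were interleaved. Pdgfrb values were 5.71, 5.65 and 5.76 in Erg -/- MPPs, against 6.37, 6.04 and 5.74 in Erg fl/fl MPPs. Here 2 of 3 Erg fl/fl arrays lay above all Erg -/- arrays, and the difference of -0.34 had an interval of -0.88 to 0.19 and an adjusted p of 0.998 by limma (unadjusted 0.187).

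A miss of the threshold does not show equal levels. For Sparc and Mgp the MPP intervals do not reach the differences seen in HSCs (-2.08 and -0.90), while for Pdgfrb the interval holds the HSC value of -0.67. For Cxcl12 and Serping1 the lower bounds of -1.12 and -0.92 lie above their HSC differences of -1.75 and -1.73, though for Cxcl12 the HSC value without Erg +/+ replicate 1 (-0.90) falls inside its interval. The MPP effect minus the HSC effect was 2.03 for Sparc (SE 0.403; limma, adjusted p = 0.192), 1.82 for Cxcl12, 1.83 for Serping1, 0.97 for Mgp and 0.33 for Pdgfrb (adjusted p = 1.0 by limma for each of these 4), so for 0 of the 5 genes were the effects shown to differ. The HSC effect, which chose the genes, is part of these values, so they are not independent of the choice.

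**Figure D2:**
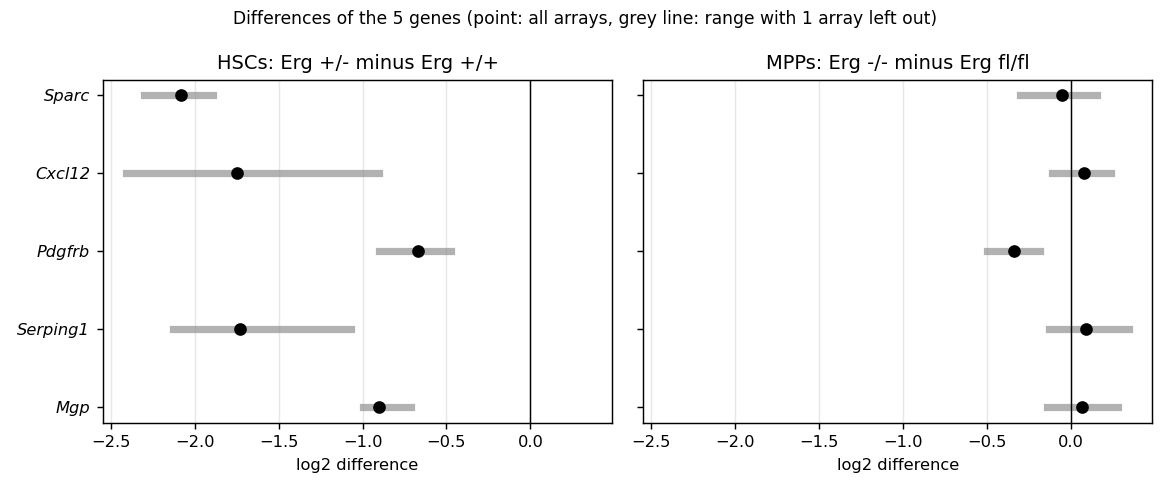
Log2 difference (horizontal axis) of each gene in HSCs, Erg +/- minus Erg +/+, and in MPPs, Erg -/- minus Erg fl/fl; points use all arrays and grey lines span the values with each of the 12 arrays left out in turn. In HSCs every line stays below 0, the longest being Cxcl12 from -2.41 to -0.90, whereas in MPPs the lines of Sparc, Cxcl12, Serping1 and Mgp cross 0.

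Set over the 4 groups, Erg +/- HSCs had the lowest mean for all 5 genes. Erg +/+ HSCs had the highest mean for Sparc, Cxcl12, Serping1 and Mgp, with the MPP groups between. For Pdgfrb the highest mean was that of Erg fl/fl MPPs, at 6.05 ± 0.319, above 5.93 ± 0.342 in Erg +/+ HSCs. Of the steps between neighbours in these orders, the arrays were apart for 1, Sparc in Erg +/+ HSCs above Sparc in Erg fl/fl MPPs. All other neighbouring groups overlapped.

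Against Erg +/+ HSCs, Erg fl/fl MPPs were at -1.40 for Sparc, -1.61 for Cxcl12, -1.25 for Serping1, -0.55 for Mgp and 0.12 for Pdgfrb. Against Erg +/- HSCs, Erg -/- MPPs were at 0.62 for Sparc, 0.21 for Cxcl12, 0.58 for Serping1, 0.41 for Mgp and 0.45 for Pdgfrb, and the groups overlapped for each gene. In the first comparison the groups were apart for Sparc and Mgp, beside 8.54% of all genes separated downwards, and in the second 14.7% of all genes were separated upwards. The median of all genes was 0.122 in the first and 0.101 in the second. These comparisons share HSC arrays with the one that chose the genes and were not tested, and they also differ in sort gate and pIpC.

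The correlations between the 5 genes were positive over all arrays, weakest for Pdgfrb, and had their highest median within the HSC sorts. Over the 12 arrays the Pearson correlation of log2 values was positive for 10 of 10 pairs, from 0.26 to 0.89 with a median of 0.77. Over the 6 HSC arrays it was 0.54 to 0.91 with a median of 0.84. Over the 6 MPP arrays 7 of 10 pairs were positive, from -0.63 to 0.71 with a median of 0.39. No p is given, since the genes were picked together and the arrays of a group share its mean. The choice by the HSC difference also raises r over the HSC arrays. The higher HSC values are therefore not read as closer co-variation. With each group's mean taken off, the median was 0.37 and 9 of 10 pairs were positive.

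Cxcl12 and Serping1 formed the closest pair, at r = 0.89 (Spearman rho 0.59) over 12 arrays, 0.91 in HSCs and 0.64 in MPPs. Their tie leaned on Erg +/+ HSC replicate 1, without which r over the other 11 arrays was 0.54. Sparc and Serping1 followed at r = 0.84 (rho 0.84), and at 0.78 without that array. In the 6 HSC arrays these 2 genes put the arrays in the same order, with rho at 1.00, and in the MPPs r was 0.21. Mgp and Serping1 had r = 0.82 (rho 0.78), with 0.86 in HSCs and 0.71 in MPPs. Mgp correlated at 0.78 with Cxcl12 (rho 0.75) and at 0.77 with Sparc (rho 0.71), and Sparc at 0.77 with Cxcl12 (rho 0.71).

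Pdgfrb stood apart from the other genes. Its r over 12 arrays was 0.50 with Mgp (rho 0.40), 0.46 with Sparc (rho 0.43), 0.37 with Cxcl12 (rho 0.28) and 0.26 with Serping1 (rho 0.15). In HSC arrays these values were 0.83, 0.65, 0.70 and 0.54, but in MPP arrays -0.29, 0.39, -0.26 and -0.63. Among the MPP arrays Erg fl/fl replicate 1 was the highest for Pdgfrb, at 6.37, and the lowest for Serping1, at 4.21. Leaving out for each pair the 2 arrays farthest from the median of its first gene gave r from 0.11 to 0.74, with a median of 0.57.

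**Figure D3:**
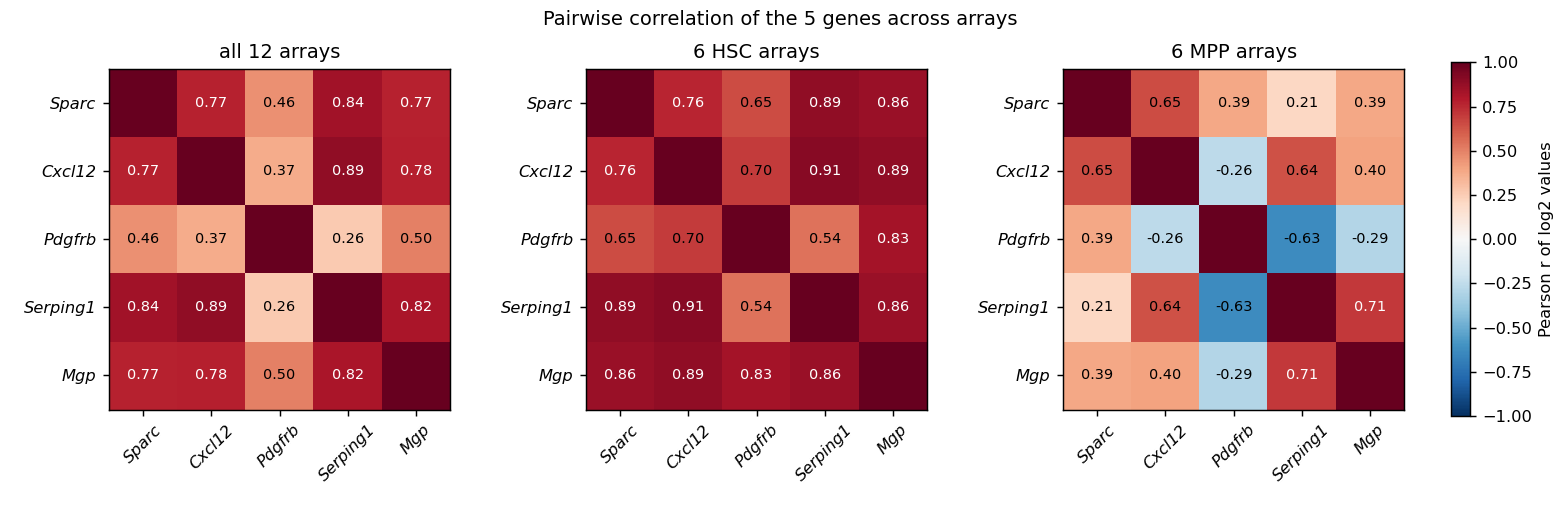
Pearson correlation of log2 values for each pair of the 5 genes (both axes), over all 12 arrays, the 6 HSC arrays and the 6 MPP arrays; red is positive and blue negative. All pairs are positive in HSCs (0.54 to 0.91), and the negative values in MPPs, down to -0.63, all involve Pdgfrb.

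Erg +/+ HSC replicate 1 stood out in these genes and beyond them. For Cxcl12 it lay 2.06 units above the next highest of the 12 arrays, rank 3 of 9984 genes, and for Serping1 1.85 units, rank 5. For Sparc and Mgp it was also the highest array, by 0.56 and 0.45. In all, 49 genes were more than 1 unit higher on this array than on each of the other 11, against 6 to 27 genes for any other array. Its array weight of 0.789 was the second lowest of the 12, after 0.667 for Erg fl/fl MPP replicate 1. What part this array's difference plays in the shared pattern was not tested. Without it, Erg +/- HSCs were still below the mean of the remaining Erg +/+ HSCs, by -1.89 for Sparc, -1.07 for Serping1, -0.90 for Cxcl12, -0.71 for Mgp and -0.61 for Pdgfrb.

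Among the other genes, the patterns most like each member were ranked by Pearson r over the 12 arrays. Nearest to Sparc were Irf1, an interferon-regulated transcription factor gene (r = 0.842), Smc5, a subunit of a chromosome-maintenance complex (0.832), and Zbtb20, a zinc finger repressor gene (0.827). Serping1 ranked 3 of 9983 by likeness to Sparc, and Cxcl12 and Mgp ranked 27 and 30. Nearest to Cxcl12 were Boll, a germ cell RNA-binding protein gene (0.940), Tns1, which encodes the adhesion protein tensin (0.919), and Irak2, a kinase gene of interleukin-1 and Toll-like receptor signalling (0.906). Without Erg +/+ HSC replicate 1 these 3 values were 0.66, 0.71 and 0.60, so they rest largely on that array. Boll was dim, at 2.91 to 4.43 over the 12 arrays, below the array medians of 5.41 to 5.54.

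Nearest to Serping1 were Dok5, a docking protein gene (0.908), Rab3il1, an exchange factor gene for Rab proteins (0.893), and Rbm3os, a noncoding transcript antisense to Rbm3 (0.886), whose reading cannot be told from Rbm3 where the probes do not separate strands. Without the same array they were at 0.63, 0.71 and 0.54. Nearest to Mgp were Fgd2, an exchange factor gene for Cdc42 (0.936, and 0.90 without the array), Mmgt1 (0.865 and 0.81) and the acute-phase gene Saa1 (0.815 and 0.77). Saa1 has a near-identical copy in Saa2 and was dim, at 2.01 to 2.83 over the 12 arrays. Nearest to Pdgfrb were Nnt, the mitochondrial transhydrogenase gene (0.861), Bud31, a splicing factor gene (0.845), and Bbs1, a cilium trafficking gene (0.824). For Pdgfrb the other 4 members ranked between 453 and 2050.

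The mean of the 5 standardised genes was matched best by Fgd2 (r = 0.898), then by Zmym4 and the mineralocorticoid receptor gene Nr3c2 (0.836 each), Boll (0.834), Lmbr1 (0.820), Tmc4 (0.819), Fam217b (0.818), Rbm3os (0.812), Marcks, a substrate of protein kinase C (0.811), and Rab3il1 (0.804). Of the 21 distinct genes named by this ranking, 16 had their highest value on Erg +/+ HSC replicate 1. All 21 had lower means in Erg +/- HSCs than in Erg +/+ HSCs, as a ranking by likeness would give, and by limma 0 passed in HSCs or MPPs (lowest adjusted p = 0.35).

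Lists of 19 cell types and pathways held 116 measured genes besides the 5. Between Erg +/- and Erg +/+ HSCs 0 of the 116 passed by limma, where 0.02% of all genes did. At an unadjusted p under 0.05, 4 were lower and 8 higher, beside 3.59% and 2.73% of all genes. Groups did not overlap for 7 that were lower, beside 4.38% of all genes, and for 10 that were higher, beside 6.06%. In MPPs 4 of the 116 passed, beside 0.0801% of all genes, and all 4 are genes of blood cells. The lists were chosen with earlier results of these data known, so nothing is read from that count. Vpreb1 and Igll1, which encode the surrogate light chain of early B cells, fell in Erg -/- MPPs, by log2 differences of -4.75 and -1.88 (limma, adjusted p = 0.00326 and 0.000442). Nkg7, a granule gene of killer cells, fell by 3.05 (limma, adjusted p = 0.0274), and the interferon-induced membrane protein gene Ifitm1 fell by 1.66 (limma, adjusted p = 0.000442).

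For marrow stroma, 11 other genes were measured of 36 listed, among them Adipoq, Dcn, Foxc1, Gas6, Lpl and Igfbp5. In Erg +/- HSCs 6 of the 11 were below and 5 above Erg +/+ HSCs, with a median of -0.09, and the arrays of the groups overlapped for each of them. Dcn, the matrix proteoglycan decorin, averaged 4.03 in Erg +/- HSCs and 3.94 in Erg +/+ HSCs, and the fat hormone gene Adipoq 3.52 and 3.83. Eng, the co-receptor endoglin, which stem cells carry too, was the brightest, at 9.69 in Erg +/- HSCs and 10.03 in Erg +/+ HSCs. In MPPs Eng averaged 5.85 in Erg -/- and 6.42 in Erg fl/fl cells. It is part of the list mean below and raises that mean in HSCs over MPPs. The haptoglobin gene Hp had the widest difference of the list, at 0.95, with means of 6.63 in Erg +/- HSCs and 5.68 in Erg +/+ HSCs (limma, adjusted p = 0.885). Tnc, the matrix gene tenascin C, had uneven Erg +/+ arrays. It stood at 4.47, 4.49 and 4.56 in Erg +/- HSCs, against 6.06, 4.10 and 5.59 in Erg +/+ HSCs, with a difference of -0.74 (limma, adjusted p = 0.851), and its mean in both MPP groups, 5.34 in Erg -/- and 5.27 in Erg fl/fl, was near the 5.25 of Erg +/+ HSCs. The mean level of the 11 genes lay between 5.30 and 5.43 in Erg +/- HSCs, between 5.12 and 5.67 in Erg +/+ HSCs, between 4.88 and 5.17 in Erg -/- MPPs and between 5.01 and 5.14 in Erg fl/fl MPPs, and its highest array was Erg +/+ HSC replicate 1.

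Of 9 other secreted niche factors and niche regulators 4 were below and 5 above in Erg +/- HSCs, with a median of 0.01. Ptn, the growth factor pleiotrophin of marrow endothelium and stroma, averaged 4.66 ± 0.487 in Erg +/- HSCs and 5.31 ± 0.409 in Erg +/+ HSCs (SD, n = 3 each), with overlapping arrays and an adjusted p of 0.804 by limma. The cytokine gene Il11 was at 0.33, and Bmp4, a bone morphogenetic protein gene, at 0.01. Nes, the intermediate filament gene nestin, was separated downwards at -0.17 (limma, adjusted p = 0.963).

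Of 7 other mural and smooth muscle genes, including Acta2, Tagln, Notch3 and Mcam, 3 were below and 4 above Erg +/+ HSCs in Erg +/- HSCs, with a median of 0.04. Acta2, smooth muscle actin, averaged 4.57 in Erg +/- HSCs and 4.58 in Erg +/+ HSCs, and the pericyte genes Notch3 and Higd1b were at 0.20 and 0.13. Of 3 other bone-lineage genes, Ibsp, Pth1r and Phex, all were below, by -0.46, -0.06 and -0.01, and 0 of them passed. Of 14 other matrix genes 8 were below and 6 above, with a median of -0.02. Loxl1, a collagen and elastin cross-linking enzyme gene, was separated downwards at -0.26 (limma, adjusted p = 0.898), and the fibulin gene Fbln1 upwards at 0.32 (limma, adjusted p = 0.851).

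Of 8 endothelial genes 6 were below, with a median of -0.26, and 0 passed. The groups did not overlap for 2 that were lower, Sox18 and Pecam1, beside 4.38% of all genes. They were also apart for 1 that was higher, beside 6.06% of all genes. That gene was Mmrn2, an endothelial matrix glycoprotein gene, at 0.37 (limma, adjusted p = 0.894). Sox18, an endothelial transcription factor gene, stood at 5.74, 5.88 and 6.19 in Erg +/- HSCs, against 6.55, 6.63 and 7.50 in Erg +/+ HSCs. The difference of -0.96 (SE 0.230) had an adjusted p of 0.40 by limma. In MPPs Sox18 ran the other way, at 5.96 ± 0.0289 in Erg -/- and 5.46 ± 0.0195 in Erg fl/fl MPPs (SD, n = 3 each), with an adjusted p of 0.998 by limma. Sox7, a related gene, was at 0.23 with overlapping arrays. Pecam1, an adhesion molecule of endothelium and of blood cells, was separated downwards in both populations, by -0.47 in Erg +/- HSCs and -0.43 in Erg -/- MPPs, with adjusted p of 0.823 and 0.998 by limma. Of all genes, 6.1% were separated downwards in MPPs. Kdr, the main receptor for vascular endothelial growth factor, was at -0.52 (limma, adjusted p = 0.789) with overlapping arrays. Plvap, a marker of vessels with open fenestrae, averaged 4.70 in Erg +/- HSCs and 4.74 in Erg +/+ HSCs.

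The direct partners of the 5 genes were few on the arrays. Of the CXCL12 axis, the scavenging receptor gene Ackr3 averaged 4.46 in Erg +/- HSCs and 4.38 in Erg +/+ HSCs, and the protease genes Mmp2 5.94 and 6.24 and Mmp9 4.97 and 5.23 in the same order. Of the PDGF pathway, the ligand gene Pdgfa was at 0.31 (limma, adjusted p = 0.898). The phosphatase gene Ptpn11 was at -0.39, separated downwards but not called (limma, adjusted p = 0.805). Of the SPARC family, Smoc2 and Spock3 were at 0.16 and 0.08. Around SERPING1 in the complement system, C1qa, C1qb and C1qc were at -0.03, 0.48 and -0.0. C4a was at 0.22, Kng1 at 0.02 and the lectin pathway protease genes Masp1 and Masp2 at 0.19 and 0.02. The bradykinin receptor gene Bdkrb2 was at 0.25, separated upwards but not called (limma, adjusted p = 0.885). Around MGP, the receptor gene Bmpr1a was at 0.62 and the target genes Id1, Id2 and Id3 at 0.31, -0.44 and -0.30. Of these, Id1 was separated upwards but not called (limma, adjusted p = 0.851). By limma 0 of these passed.

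Other blood cell types gave a mixed picture beside the 5 genes. In HSCs the erythroid list ran opposite to them. All 13 measured genes, of 22 listed, lay above Erg +/+ HSCs in Erg +/- HSCs, with a median of 0.56. Of all genes, 46.2% lay below. By limma 0 passed, and 4 were separated upwards, beside 6.06% of all genes. All 13 were also above in Erg -/- MPPs, with a median of 0.36, where no difference was detected in the 5 genes. This list and the other lists were chosen with earlier results of these data known, so nothing is read from their counts. Rhd and Kel, which encode blood group proteins of the red cell membrane, had the smallest p of the list, with differences of 1.12 and 1.14 (limma, adjusted p = 0.318 and 0.439). Their means were 6.33 and 5.71 in Erg +/- HSCs and 5.21 and 4.57 in Erg +/+ HSCs. The mean level of the list was 6.19 to 6.39 in Erg +/- HSCs, against 5.46 to 5.76 in Erg +/+ HSCs, and 6.03 to 6.50 in Erg -/- MPPs, against 5.74 to 6.08 in Erg fl/fl MPPs. Over the 12 arrays it had r = -0.71 with the mean of the 5 genes. Since the 5 genes were chosen by their HSC difference, this r partly restates that choice and is a description only.

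Of 9 megakaryocyte and platelet genes, a lineage that makes SPARC, 7 were below and 2 above in Erg +/- HSCs, with a median of -0.20. The platelet glycoprotein gene Gp5 stood at 5.77, 6.29 and 6.51 in Erg +/- HSCs, against 7.01, 6.57 and 6.96 in Erg +/+ HSCs. Those groups did not overlap by a small margin, and the difference of -0.66 (SE 0.262) had an adjusted p of 0.781 by limma. Itga2b, the platelet integrin gene, averaged 6.25 in Erg +/- HSCs and 6.44 in Erg +/+ HSCs. The platelet tubulin gene Tubb1 averaged 5.58 and 5.24, and its groups were separated upwards (limma, adjusted p = 0.885). Over all genes 46.2% lay below 0, and 4.38% were separated downwards and 6.06% upwards. The list's mean was 5.83 to 6.00 in Erg +/- HSCs and 6.00 to 6.14 in Erg +/+ HSCs, and 5.38 to 5.64 in Erg -/- MPPs and 5.50 to 5.62 in Erg fl/fl MPPs. Mmrn1, named above as an HSC-associated gene, is part of this mean and raises it in HSCs over MPPs. It averaged 8.65 in Erg +/- and 8.90 in Erg +/+ HSCs, against 3.81 in Erg -/- and 4.60 in Erg fl/fl MPPs.

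Of 7 macrophage genes 5 were above and 2 below in Erg +/- HSCs, with a mean level of 5.91 to 7.17 in Erg +/- HSCs, against 5.95 to 6.40 in Erg +/+ HSCs, the highest array being Erg +/- replicate 1. All 7 were above in Erg -/- MPPs, at a mean level of 6.28 to 6.37, against 5.66 to 6.08 in Erg fl/fl MPPs. The heme oxygenase gene Hmox1 was at 0.63 in HSCs (limma, adjusted p = 0.834). In MPPs Hmox1 was at 1.13, separated upwards but not called (limma, adjusted p = 0.645). Neutrophil genes split evenly in HSCs, 2 of 4 each way, with Mmp8 at -0.59 and Fcnb at 0.57. The part of erythroid, megakaryocyte, macrophage or stromal RNA in the pattern of the 5 genes was not tested.

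**Figure D4:**
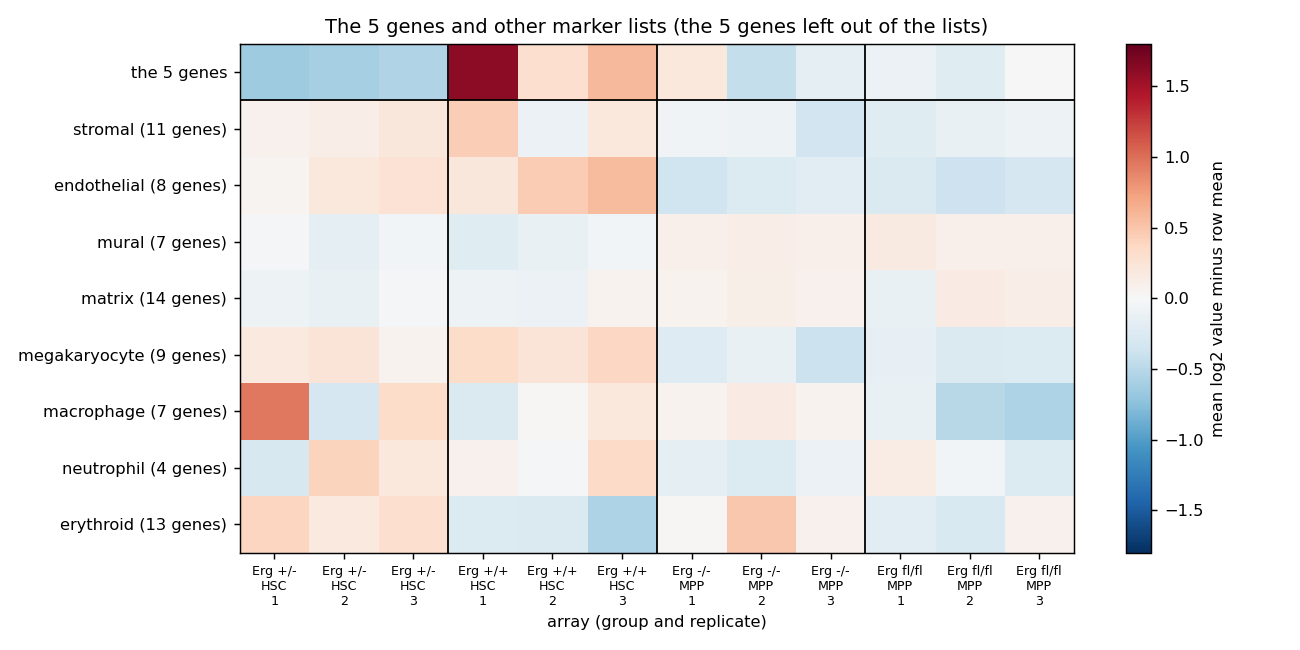
Mean log2 value of the 5 genes and of other marker lists on each array, minus the row's mean over the 12 arrays (colour scale); columns are arrays by group and replicate, and lists leave out the 5 genes. The top row is highest on Erg +/+ HSC replicate 1 and lowest on the Erg +/- HSC arrays, and the erythroid row is higher on Erg +/- than on Erg +/+ HSC arrays.

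How far these signals rise above background limits what the values can show. No detection calls were used here. Serping1 and Mgp lay below the median of their own array on 11 of 12 arrays each, and the exception was Erg +/+ HSC replicate 1 in both. Sparc, Cxcl12 and Pdgfrb averaged 6.35, 6.18 and 5.74 over all arrays, near the median gene, at 5.81. RMA compresses the folds of such dim probe sets, so the folds given for these genes may understate theirs. The choice of the genes by their HSC difference works the other way and may overstate the HSC differences. Which of these weighs more was not tested.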

How the data were processed

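The deposited log2 values come from RMA in the affy package, per the submitters' processing notes, without a version. The sources used here do not say if the arrays went through RMA jointly. Of 18719 probe sets, 10657 have 1 gene symbol, 523 several, and 7539 are unnamed here. The probe set of highest mean stood for each of 9984 genes. The members, lists and naming rule were chosen with earlier results of these data known. One limma fit (limma 3.58.1, R 4.3.3) with 4 group means over 12 arrays gave every difference, without a filter, and two-sided p-values were adjusted over all genes by Benjamini-Hochberg (threshold 0.05). The residual degrees of freedom were 8, plus 4.35 from the prior. SE is the moderated standard error. Replicate p-values measure the spread between samples, which may be technical. Named genes were the 3 most alike each member, the 10 most alike their standardised mean (predicted genes, clones and small RNAs not named), and from each list the called genes or the 2 of smallest p in HSCs. Other list genes named in the text were picked with their values in view. The script was tested on simulated data with known changes. Precision is limited by 3 arrays per group.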

Additional observations from a re-analysis of the deposited data

How the results depend on the processing

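In MPPs 0 of the 5 genes were called under all alternatives in which all 5 were tested, the replicate block included, and the filter at the 50th percentile kept only Sparc and Cxcl12. The sign of these small MPP differences was not stable. Sparc was at 0.02 with repeated quantile normalisation and 0.07 with array weights, and with 1 array left out the differences ranged from -0.30 to 0.16 for Sparc, -0.11 to 0.24 for Cxcl12, -0.13 to 0.35 for Serping1 and -0.14 to 0.28 for Mgp, with the median of the 5 from -0.14 to 0.21. In HSCs the median of the 5 genes ranged from -2.00 to -0.90 with 1 array left out, and it was -0.90 without Erg +/+ replicate 1. Same-numbered replicates did not deviate together (r from -0.0852 to 0.0862), so their numbers were not taken as pairs. The number of genes called in HSCs, 2, was 1 with the replicate block, 7 with the 25th percentile filter, 0 with means of probe sets, 1 with repeated quantile normalisation, 5 with an intensity trend, 0 with only the HSC arrays and 1 to 8 with 1 array left out. In MPPs the 8 called genes became 5 to 10 with 1 array left out. The median correlation of 0.77 was 0.39 within MPPs, 0.37 for deviations from group means and 0.58 to 0.78 with 1 array left out. The causes were not tested.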
